A study of Homo sapiens with 8 samples.

Results

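The genes described here are 10 factors by which myeloma cells act on osteoclasts and osteoblasts: the ligands CCL3, IL32, HGF, BMP6, TNFSF11 and SPP1, the Wnt antagonists DKK1 and FRZB, the decoy receptor TNFRSF11B, and the transcription factor NFATC1. They were chosen by name, and all 10 had deposited transcripts, among 24351 genes in the table. The RNA came from ARP1 and H929, established lines of human myeloma, the plasma cell cancer. Each line was listed in 4 genotypes with 1 library each: CHEK1 overexpression, the control of overexpression, CHEK1 knockdown, and the control of knockdown. The 8 libraries gave 4 per line and 2 per genotype. CHEK1 encodes the checkpoint kinase CHK1, and the labels say neither how its level was altered nor whether a line was a pool or a clone.

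Myeloma cells in the marrow tip the balance of bone turnover towards loss. Osteoclasts, the cells that resorb bone, form when RANKL (the product of TNFSF11) binds RANK on their precursors and switches on NFATC1, while osteoprotegerin (from TNFRSF11B) soaks up RANKL. Osteoblasts, which lay bone down, need Wnt and BMP signals, and secreted antagonists such as DKK1 block the first of these.

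The unit is FPKM (fragments corrected for transcript length and for the size of the library), summed per gene over its deposited transcripts. The read depth is unknown, so no counting error could be attached to a single library. In bulk RNA, fewer cells of a type and less RNA per cell cannot be told apart. Summed FPKM was 631871 to 693299 per library, and 53.7% to 57.9% of genes reached an FPKM of 1. CHEK1 stood at 114 FPKM with overexpression against 78.2 in its control in ARP1, and at 107 against 81.6 in H929. The ARP1 library labelled knockdown held 51.6 against 61.0 in its control, and the H929 one held 84.8 against 80.7. That H929 library thus held no less CHEK1 than its control. The knockdown fold changes below include it under its label, so their directions cannot be read as effects of less CHEK1. Of 10 plasma cell markers all were tested, with JCHAIN, the joining chain of antibodies, the highest at 2808 ± 550 FPKM in ARP1 and 2660 ± 640 in H929 (SD, n = 4 libraries each). Limma called 4 of the 10 as higher and 0 as lower in ARP1, where 13.7% of all tested genes were called higher and 13.4% lower. The median log2 fold change was 0.64 beside 0.00 for all tested genes. SLAMF7, a surface receptor of plasma cells, was at 13.3 to 27.4 FPKM in ARP1 and at most 0.201 in H929, and FCRL5 did not exceed 1.68 in any library. Both reached an FPKM of 1 only in ARP1, so they passed the filter through that line alone.

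Of the 10 factors, 6 reached an FPKM of 1 in at least 1 library and 3 did so in all 8, where 47.6% of all genes did. CCL3, BMP6 and NFATC1 were the 3. IL32 reached it in all 4 H929 libraries and in 3 of 4 ARP1 libraries, the exception being ARP1 with CHEK1 overexpression at 0.861. DKK1 reached it in 2 libraries, the ARP1 control of knockdown and the H929 library labelled knockdown, and HGF in 1, the ARP1 control of overexpression. By genotype, 3 factors reached it in both lines with CHEK1 overexpression, and 4 did so in the control of overexpression, in the libraries labelled knockdown and in the control of knockdown. IL32 was the factor that made this difference, at 0.861 FPKM in ARP1 with overexpression and 1.05 in its control, both close to the threshold. The share of all genes was not counted by genotype or for at least 1 library. TNFSF11, FRZB, TNFRSF11B and SPP1 reached an FPKM of 1 in no library.

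**Figure D1:**
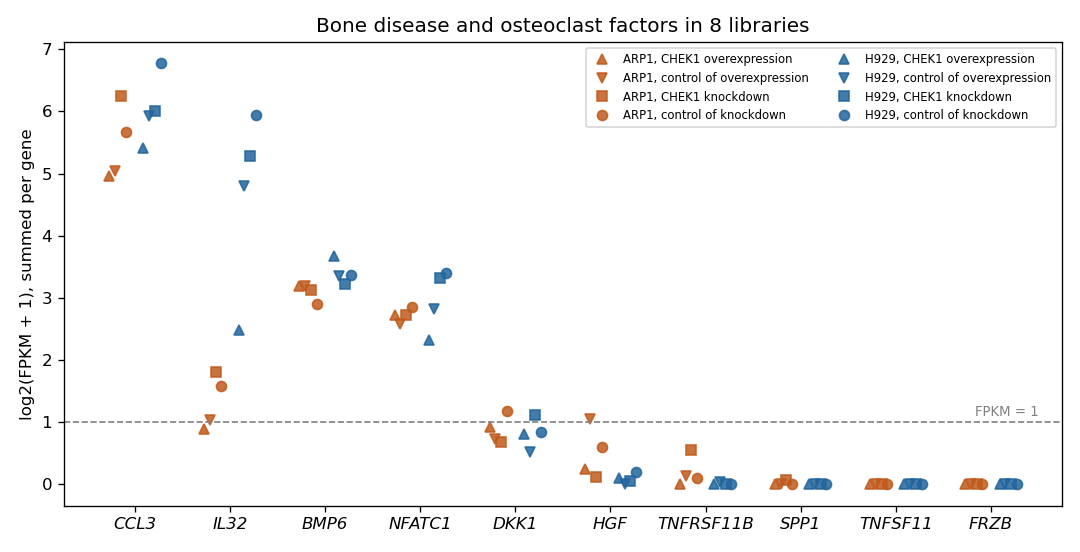
Each point is 1 library, placed by the log2 of summed FPKM plus 1 of each factor, with ARP1 in orange to the left of H929 in blue and the marker giving the genotype. The dashed line marks an FPKM of 1; CCL3, BMP6 and NFATC1 lie above it throughout, IL32 lies above it in all H929 libraries, and TNFSF11 and FRZB lie at 0.

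The order of the levels was steady in ARP1 and less so in H929. In all 4 ARP1 libraries CCL3 came first, then BMP6, then NFATC1, and the ranges of these 3 in FPKM did not overlap (30.1 to 75.2, 6.50 to 8.15, and 4.97 to 6.22). In H929 CCL3 also came first in every library, at 41.8 to 108 FPKM. IL32, at 4.57 to 60.2, came second in 3 H929 libraries and after BMP6 in the one with CHEK1 overexpression. BMP6 at 8.35 to 11.8 and NFATC1 at 4.01 to 9.58 overlapped in H929.

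CCL3 encodes the chemokine MIP-1 alpha, which draws osteoclast precursors and stimulates them. The gene (ENSG00000277632) lies on the minus strand of chromosome 17, at 36088256 to 36090169 in GRCh38, and its deposited level came from 1 transcript, CCL3-204, of 778 nt. That transcript starts at 36090141, inside the RefSeq promoter window (GRCh38.p14) at chr17:36090094-36090393 on the minus strand. The window is shown because CCL3 was the highest of the factors in every library. Capitals in this and the following windows mark matches, on either strand, to the core promoter element TATAAA, the cyclic AMP response element (CRE) TGACGTCA, the AP-1 element TGANTCA, the NFAT core GGAAA and the NF-kB consensus, given by name.
CCL3 promoter: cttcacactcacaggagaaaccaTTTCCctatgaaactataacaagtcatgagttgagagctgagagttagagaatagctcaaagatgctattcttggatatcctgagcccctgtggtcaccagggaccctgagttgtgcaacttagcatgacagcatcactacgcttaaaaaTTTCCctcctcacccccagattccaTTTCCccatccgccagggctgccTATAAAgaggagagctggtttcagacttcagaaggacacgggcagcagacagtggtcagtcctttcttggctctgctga
It held 1 match to the core promoter element, which 11.5% of 35116 RefSeq windows of 300 bases hold, and 3 matches to the NFAT core, which 61.2% hold. No NF-kB consensus (in 11.3% of windows), AP-1 (7.71%) or CRE (1.85%) letters were found in it.

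In ARP1, CCL3 stood at 30.1 FPKM with CHEK1 overexpression and at 31.9 in its control, and at 75.2 with the knockdown label and 50.1 in its control. In H929 it stood at 41.8 with overexpression and 59.7 in its control, and at 63.6 in the library labelled knockdown and 108 in its control. ARP1 was lower than H929 in 3 of the 4 genotypes, the libraries labelled knockdown being the exception, and the ranges of the lines overlapped. The mean was 46.8 ± 21.0 FPKM in ARP1 and 68.4 ± 28.2 in H929 (SD, n = 4 each). By limma the log2 fold change of ARP1 over H929 was -0.55 (SE 0.21, adjusted p = 0.099), which did not pass 0.05. With either library labelled knockdown left out it was -0.82 and passed (adjusted p = 0.011); leaving out any of the other 6 libraries gave no call. CCL3L1, a near-identical copy, could have taken or lent reads: its transcript CCL3L1-203 shared 95.4% of aligned bases with CCL3-204, and its FPKM was 0 to 1.79. CCL3 levels are uncertain to that extent.

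IL32 encodes interleukin 32, a proinflammatory cytokine of T cells, natural killer cells and other cells that myeloma cells can release in vesicles and that promotes osteoclast formation. The gene (ENSG00000008517) lies on the plus strand of chromosome 16, at 3065297 to 3082192 in GRCh38, and 30 of its transcripts were in the table. Transcripts started in either of 2 RefSeq windows on the plus strand, chr16:3065153-3065452 with 13 transcripts and chr16:3065534-3065833 with 17. They are shown because IL32 was the factor called between the lines.
IL32 promoter, upstream: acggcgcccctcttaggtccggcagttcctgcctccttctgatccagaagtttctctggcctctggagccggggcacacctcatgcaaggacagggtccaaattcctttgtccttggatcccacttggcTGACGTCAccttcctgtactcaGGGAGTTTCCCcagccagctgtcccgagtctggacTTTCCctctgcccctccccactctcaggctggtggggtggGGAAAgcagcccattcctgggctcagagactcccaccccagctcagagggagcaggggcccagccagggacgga
IL32 promoter, downstream: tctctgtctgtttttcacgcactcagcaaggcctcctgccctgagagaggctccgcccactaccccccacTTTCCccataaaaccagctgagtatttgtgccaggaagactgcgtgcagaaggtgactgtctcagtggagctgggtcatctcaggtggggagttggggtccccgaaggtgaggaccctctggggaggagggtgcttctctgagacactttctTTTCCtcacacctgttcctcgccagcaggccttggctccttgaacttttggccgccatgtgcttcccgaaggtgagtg
The upstream window held 2 overlapping matches to the NF-kB consensus, 1 CRE match and 3 matches to the NFAT core, 1 of which overlapped the NF-kB letters. The downstream window held 2 matches to the NFAT core. Transcripts that start in the downstream window held 63.6% to 70.6% of IL32 FPKM in the 4 H929 libraries. In ARP1, where levels were near the threshold, they held 29.7% to 33.4% in 3 libraries and 60.8% in the control of knockdown.

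In ARP1, IL32 stood at 0.861 FPKM with CHEK1 overexpression and at 1.05 in its control, and at 2.49 with the knockdown label and 2.004 in its control. In H929 it stood at 4.57 with overexpression and 26.8 in its control, and at 38.05 in the library labelled knockdown and 60.2 in its control. Every ARP1 library lay below every H929 library, a separation whose share among all tested genes was not counted. The mean was 1.60 ± 0.775 FPKM in ARP1 and 32.4 ± 23.2 in H929 (SD, n = 4 each). Each SD given for a line spans its 4 genotypes, so it is not a spread of replicates. With 1 line on each side, a p-value between lines reflects just the scatter of these libraries, which may not be separate cultures. By limma, with Benjamini-Hochberg adjustment over 14905 genes, IL32 was lower in ARP1 with a log2 fold change of -3.29 (SE 0.41, adjusted p = 0.00342). The call held with each library left out and under 9 other settings. Of the 5 factors tested IL32 was the 1 called, where 27.1% of all tested genes were called, 13.4% as lower and 13.7% as higher in ARP1. At an unadjusted p under 0.05 there were 3 of 5 factors (IL32, CCL3 and BMP6), beside 41.1% of all tested genes. For T and NK cells, which also make IL32, CD3D and NKG7 were at 0 in all 8 libraries. CD3E was at 0 in all 4 H929 libraries and at 0.198 to 0.673 FPKM in ARP1. GZMB was at 0.205 to 0.569 in ARP1 and 0.496 to 1.19 in H929. CD4 was above 0 in all 8 libraries, up to 0.335, and CD8A did not exceed 0.0948. The list's summed FPKM was 0.812 to 1.51 in ARP1 and 2.12 to 14.8 in H929. The highest of these sums was mostly GNLY, at 14.2 FPKM in the H929 library with overexpression, in which IL32 was lowest in that line. GNLY, a granule protein of these cells, was the 1 marker of the list tested. It was called lower in ARP1 (log2 fold change -1.66, SE 0.48, limma adjusted p = 0.0435). No ARP1 library exceeded 0.421 FPKM for GNLY, so it passed the filter only through H929, which favours a call in that direction. The part of these markers in the IL32 result was not tested.

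**Figure D2:**
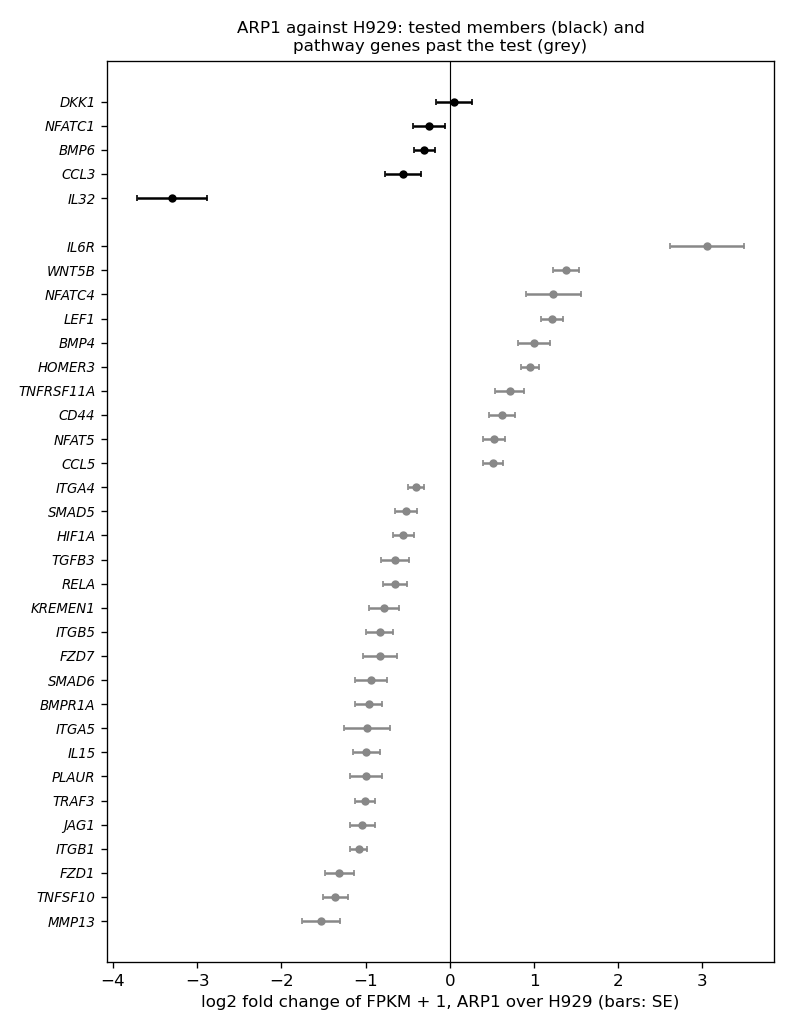
Points are log2 fold changes of FPKM plus 1 for ARP1 over H929 and bars are standard errors from limma, for the 5 tested factors in black and for named pathway genes past the test in grey. IL32 lies at -3.29, farther from 0 than the other 4 factors, and IL6R lies at 3.05.

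The division of IL32 among its transcripts differed from library to library. The leading transcript was IL32-225 (447 nt) in H929 with overexpression, with 28.6% of the sum, and in its control, with 58.3%. It was IL32-232 (623 nt) in the H929 library labelled knockdown at 26.1%, and IL32-201 (1056 nt) in its control at 20.3%. IL32-225 thus stood at 1.31 and 15.6 FPKM in the library with overexpression and its control, and at 0.00296 or less in the H929 library labelled knockdown and its control. Short transcripts raise a summed FPKM for the same number of fragments. With FPKM weighted by transcript length, IL32 stood at 4.11 in H929 with overexpression against 21.8 in its control, and at 40.3 in the library labelled knockdown against 63.2 in its control, so the order of the libraries was as before.

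**Figure D3:**
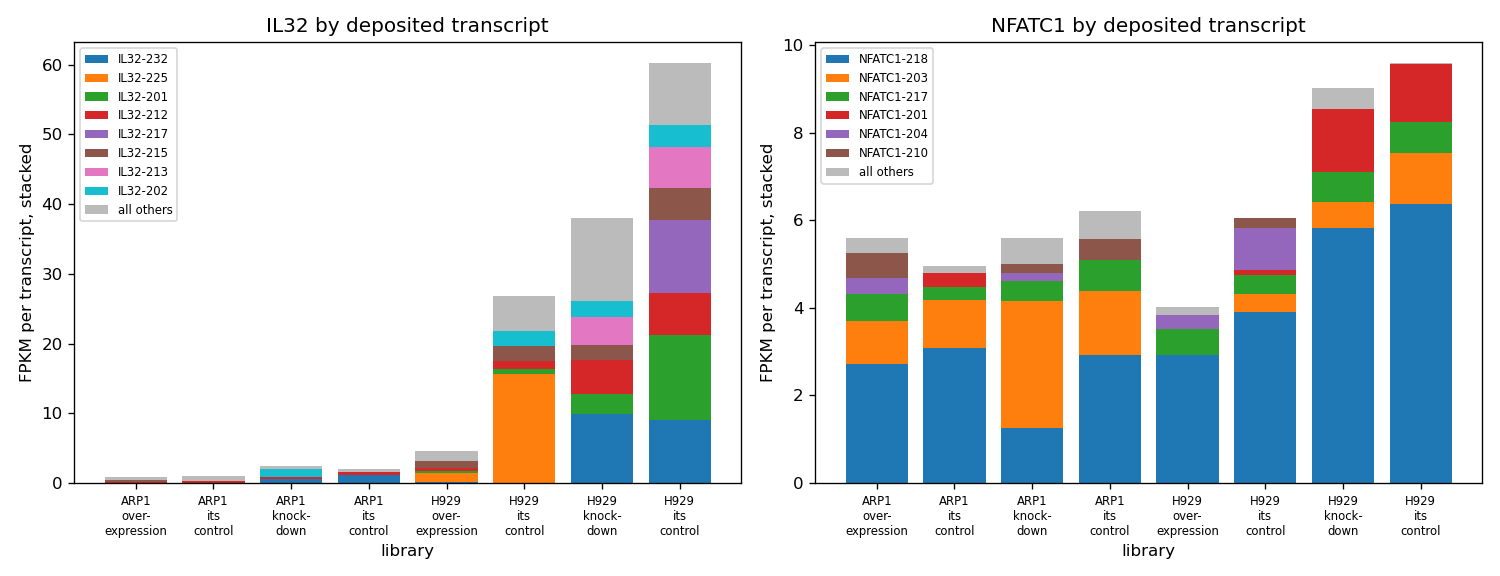
Stacked bars give FPKM per deposited transcript of IL32 (left) and NFATC1 (right) in each library, ARP1 before H929, with the smaller transcripts together in grey. The IL32 bars of ARP1 reach 2.49 and those of H929 up to 60.2, with different leading transcripts; NFATC1-218 leads in 7 of 8 NFATC1 bars.

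BMP6 is a bone morphogenetic protein that drives osteoblast formation and, in the liver, induces the iron hormone hepcidin. Its gene (ENSG00000153162) lies on the plus strand of chromosome 6, at 7726797 to 7881422 in GRCh38, with 1 deposited transcript of 2780 nt. BMP6 stood at 8.09 FPKM in ARP1 with overexpression and 8.15 in its control, and at 7.77 in the library labelled knockdown and 6.50 in its control. In H929 it stood at 11.8 with overexpression and 9.21 in its control, and at 8.35 in the library labelled knockdown and 9.34 in its control. The highest ARP1 library was at 8.15 and the lowest H929 library at 8.35. The share of all tested genes with lines apart in this way was not counted. The mean was 7.63 ± 0.774 FPKM in ARP1 and 9.68 ± 1.49 in H929 (SD, n = 4 each). By limma the log2 fold change was -0.30 (SE 0.13, adjusted p = 0.12), so the difference did not pass over all genes.

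NFATC1, the transcription factor that osteoclast precursors switch on in answer to RANKL, also acts in lymphocytes, where calcineurin activates it. Its gene (ENSG00000131196) lies on the plus strand of chromosome 18, at 79395856 to 79529325 in GRCh38. The gene has an upstream promoter, known in lymphocytes for a short isoform that maintains its own expression, and a downstream promoter for longer isoforms. RefSeq gives windows for them at chr18:79395680-79395979 and chr18:79400049-79400348, shown because transcripts from each could be summed.
NFATC1 promoter, upstream: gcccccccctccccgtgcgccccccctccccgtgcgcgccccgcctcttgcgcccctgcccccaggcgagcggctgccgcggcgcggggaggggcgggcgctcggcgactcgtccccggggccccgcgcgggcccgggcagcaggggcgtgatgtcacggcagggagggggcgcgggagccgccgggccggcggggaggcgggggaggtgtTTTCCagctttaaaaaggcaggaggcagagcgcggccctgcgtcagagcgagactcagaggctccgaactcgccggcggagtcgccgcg
NFATC1 promoter, downstream: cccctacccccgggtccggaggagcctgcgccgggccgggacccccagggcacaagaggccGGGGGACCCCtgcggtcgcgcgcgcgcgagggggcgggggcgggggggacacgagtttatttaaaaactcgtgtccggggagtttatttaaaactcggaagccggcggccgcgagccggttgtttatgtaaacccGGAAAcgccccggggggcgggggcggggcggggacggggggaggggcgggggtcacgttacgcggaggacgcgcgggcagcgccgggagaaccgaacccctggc
Both windows are rich in G and C (79.7% and 73.3%). The upstream one held 1 NFAT core match, and the downstream one held 1 NFAT core match and 1 match to the NF-kB consensus.

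NFATC1 stood at 5.59 FPKM in ARP1 with overexpression and 4.97 in its control, and at 5.60 in the library labelled knockdown and 6.22 in its control. In H929 it stood at 4.01 with overexpression and 6.06 in its control, and at 9.01 in the library labelled knockdown and 9.58 in its control. The ARP1 libraries lay within the H929 range, which spread more widely, and ARP1 was lower in 3 of 4 genotypes. The mean was 5.59 ± 0.511 FPKM in ARP1 and 7.17 ± 2.61 in H929 (SD, n = 4 each; limma log2 fold change -0.25, SE 0.19, adjusted p = 0.364). Transcripts that start in the downstream window held 72.2% to 84.7% of NFATC1 in ARP1 and 71.2% to 78.6% in H929. Those of the upstream window held 11.5% to 17.4% in ARP1 and 21.2% to 25.1% in H929, and transcripts that start outside both windows held 3.4% to 10.3% in ARP1 and up to 3.7% in H929. Among the transcripts outside, NFATC1-210 starts at 79396131, shortly past the upstream window, and held 10.3% in ARP1 with overexpression, so the split between the windows rests on where the upstream one ends. NFATC1-218, a downstream transcript of 2531 nt, led in 7 of 8 libraries. It ends at 79468001, where the longer downstream transcript NFATC1-203 ends at 79529323. The downstream share is thus not a share of longer isoforms. In the ARP1 library labelled knockdown NFATC1-203 (4595 nt) led at 2.91 FPKM, with NFATC1-218 at 1.25.

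DKK1, the Wnt antagonist that binds LRP5 and LRP6 and is known from myeloma patients with bone lesions, was near the threshold. It stood at 0.890 FPKM in ARP1 with overexpression and 0.663 in its control, and at 0.602 in the library labelled knockdown and 1.27 in its control. In H929 it stood at 0.761 with overexpression and 0.434 in its control, and at 1.17 in the library labelled knockdown and 0.800 in its control. The means were 0.857 ± 0.303 FPKM in ARP1 and 0.792 ± 0.302 in H929 (SD, n = 4 each), a difference smaller than the spread (limma log2 fold change 0.05, SE 0.21, adjusted p = 0.877). Of the 14905 tested genes DKK1 ranked 14232 by mean level. FRZB, a Wnt antagonist of the secreted frizzled-related family, was listed at 0 in all 8 libraries.

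HGF, hepatocyte growth factor, acts on the receptor MET and restrains osteoblast formation. It stood at 0.190 FPKM in ARP1 with overexpression and 1.08 in its control, and at 0.0817 in the library labelled knockdown and 0.527 in its control. In H929 it stood at 0.0769 with overexpression and 0.0106 in its control, and at 0.0428 in the library labelled knockdown and 0.155 in its control. The highest values were those of the ARP1 controls. In the highest, 45.0% of the sum was HGF-207, a transcript with a retained intron, so the FPKM of 1 was reached with a transcript that is not annotated as coding. HGF did not pass the filter for testing.

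Of the RANKL system, TNFSF11 was listed at 0 for each of its 5 transcripts in all 8 libraries. TNFRSF11B, its decoy receptor, was listed at 0 in 4 libraries, 3 of them H929, and reached its highest FPKM, 0.462, under the ARP1 knockdown label, against 0.0786 in its control. SPP1, the bone matrix protein osteopontin, was above 0 in 1 library, labelled knockdown in ARP1, with an FPKM of 0.0547. These 3 factors did not pass the filter. Without a read depth, a value of 0 here means that the gene was listed at 0, not that its RNA was absent.

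In the lines compared by genotype, no factor passed the test with CHEK1 overexpression or in the libraries labelled knockdown. Of the 5 factors tested 0 were called with overexpression by limma, where 0.00671% of 14905 genes were called, and 0 reached an unadjusted p under 0.05. In the libraries labelled knockdown the count was also 0, where 0.0134% of genes were called, and again 0 had an unadjusted p under 0.05. With n = 2 lines per genotype, a p-value here reflects just the scatter of these libraries, which may not be separate cultures.

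For CHEK1 overexpression the log2 fold change was -1.23 for IL32 (SE 0.59, adjusted p = 0.994), -0.29 for CCL3 (SE 0.30), -0.18 for NFATC1 (SE 0.27), 0.16 for BMP6 (SE 0.18) and 0.24 for DKK1 (SE 0.30). Leaving out 1 library moved CCL3 between -0.52 and -0.07, BMP6 between 0.03 and 0.29, DKK1 between 0.13 and 0.35 and NFATC1 between -0.61 and 0.26. The IL32 value came almost wholly from H929. The ratio of FPKM, overexpression over its control, was 0.171 in H929 and 0.821 in ARP1. In log2 of FPKM plus 1 the ratio was -2.32 in H929, and 0.2% of tested genes lay as far from 0 in that pair of libraries. IL32 was the 1 of 5 factors at 2-fold or more there, where 2.73% of tested genes were, and 1.45% were at 2-fold or more lower. In ARP1 0 of 5 factors were at 2-fold or more, where 3.29% of genes were. Without the H929 library with overexpression the IL32 log2 fold change was -0.09, and without the ARP1 one it was -2.37; neither passed over all genes. A test of the difference between the lines, with both controls of a line pooled, gave a log2 difference of 2.47 (ARP1 minus H929, SE 0.75, unadjusted p = 0.0209, adjusted p = 1 by limma). By that test 0 of 5 factors and 0% of genes were called, and IL32 was the 1 of 5 factors with an unadjusted p under 0.05, beside 1.87% of genes.

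The controls of H929 also differed from each other in these genes. IL32 in the control of overexpression was 0.445 times its level in the control of knockdown, and CCL3 was 0.552 times and NFATC1 0.632 times. Measured against the control of knockdown, the H929 library with overexpression held 0.0760 times the IL32, 0.386 times the CCL3 and 0.419 times the NFATC1. That library was thus the lowest of the 4 H929 libraries for IL32, CCL3 and NFATC1 and the highest for BMP6. For ARP1, IL32 with overexpression was 0.430 times the control of knockdown, and the control of overexpression was 0.523 times it. 

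**Figure D4:**
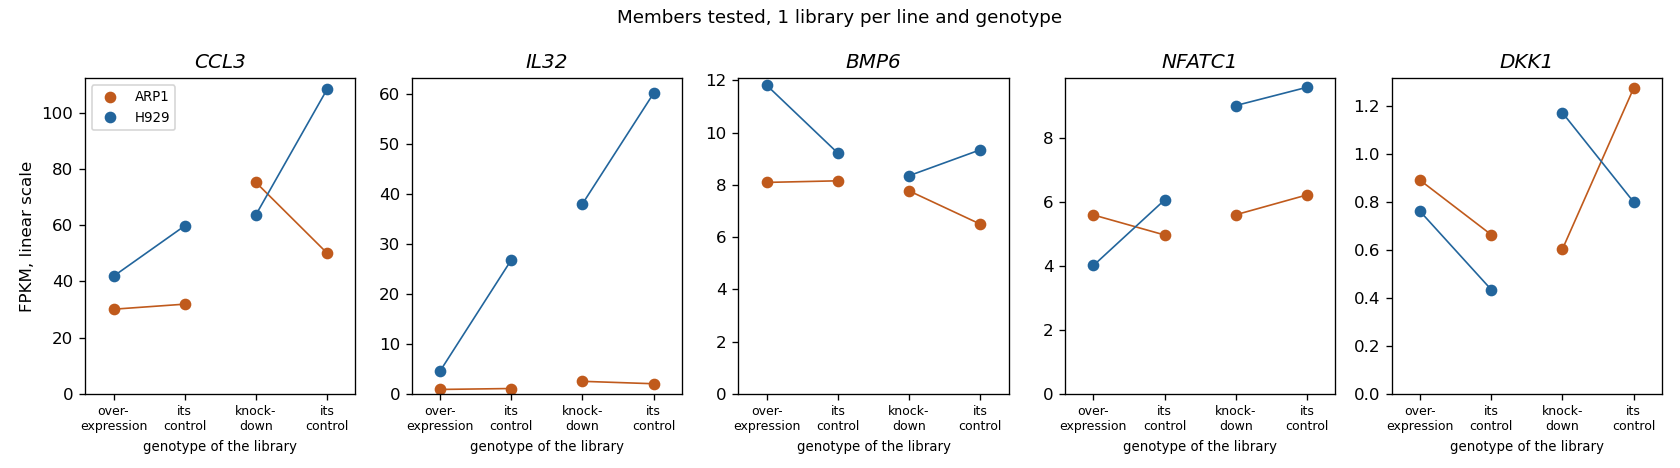
FPKM on a linear axis from 0 for the 5 tested factors in each library, ARP1 in orange and H929 in blue, with a line joining each altered library to its own control. IL32 in H929 stands at 4.57 with overexpression against 26.8 in its control, and the lines of CCL3 for knockdown slope in opposite directions.

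In the libraries labelled knockdown the log2 fold changes were -0.22 for IL32 (SE 0.59), -0.12 for DKK1 (SE 0.30), -0.10 for NFATC1 (SE 0.27), -0.09 for CCL3 (SE 0.30) and 0.04 for BMP6 (SE 0.18), with adjusted p of 0.908 to 0.951 by limma. Several of these averages joined opposite directions. CCL3 was 1.502 times its control in ARP1 and 0.588 times in H929. DKK1 was 0.473 times its control in ARP1 and 1.46 times in H929, and IL32 was 1.24 times and 0.632 times. The difference between the lines did not pass for any factor; for CCL3 the log2 difference was 1.23 (ARP1 minus H929, SE 0.61, unadjusted p = 0.0997, adjusted p = 0.661 by limma). At an unadjusted p under 0.05 there were 0 of 5 factors, beside 7.79% of genes. By ratios of FPKM plus 1, 0 of 5 factors were at 2-fold or more in ARP1, where 8.26% of tested genes were, and 0 of 5 in H929, where 3.6% were.

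**Figure D5:**
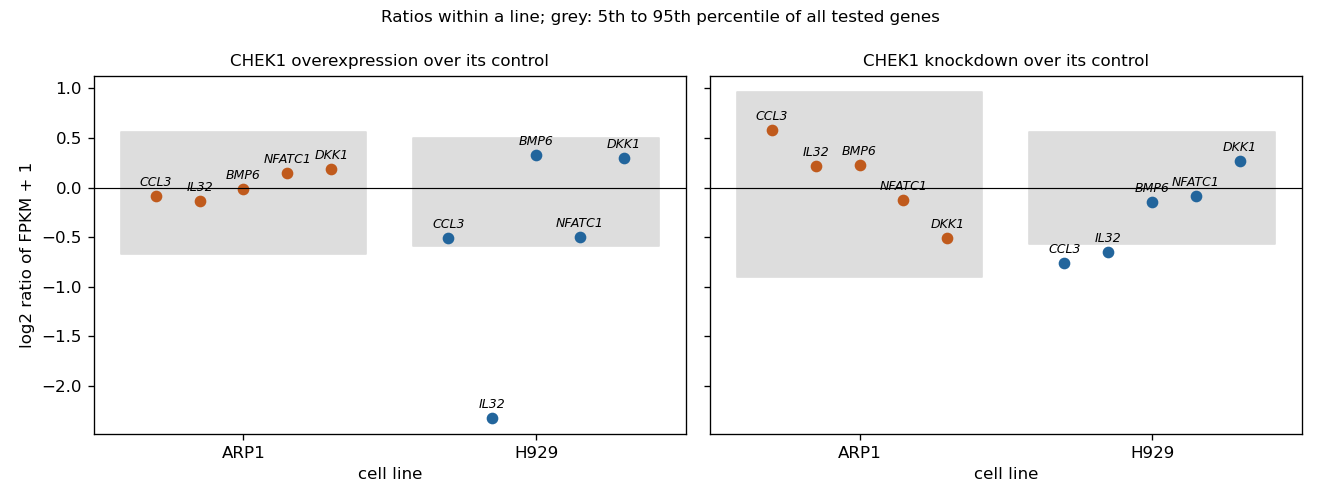
Points are log2 ratios of FPKM plus 1 of an altered library over its own control for the 5 tested factors, in ARP1 (left in each panel) and H929 (right). Grey bands span the 5th to 95th percentile of all 14905 tested genes; IL32 at -2.32 with overexpression in H929 lies far below its band, and CCL3 and IL32 in the H929 library labelled knockdown lie just below theirs.

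Within a line, IL32, CCL3 and NFATC1 were positively correlated with one another in these 8 libraries, while BMP6 and DKK1 were not part of this. After the mean of each line was subtracted, Pearson's r in log2 of FPKM plus 1 was 0.93 between IL32 and NFATC1, 0.78 between IL32 and CCL3, and 0.64 between CCL3 and NFATC1. BMP6 ran the other way, at -0.78 with IL32, -0.79 with NFATC1 and -0.49 with CCL3. DKK1 was at 0.13 with IL32, 0.44 with NFATC1, -0.0 with CCL3 and -0.49 with BMP6. These are descriptions over 8 libraries that share lines and genotypes, and the r usual between any pair of genes was not computed. The lines were not scaled to a like spread. IL32 ran from 4.57 to 60.2 FPKM in H929 and from 0.861 to 2.49 in ARP1. NFATC1 ran from 4.01 to 9.58 and from 4.97 to 6.22, so the r between IL32 and NFATC1 rests mostly on H929. By the same measure over 11030 genes, the genes most like CCL3 were GNB5 (r = 0.984), LATS2 (0.982) and ZNF678 (0.978). Those most like NFATC1 were FDPS (0.986), MIR3142HG (0.981) and APH1A (0.981), and those most like BMP6 were ATRX (0.977), ERP44 (0.97) and ATXN2 (0.958).

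Among the other genes of these pathways, the share called between the lines was not far above that of all tested genes, and 0 were called by genotype. Of 91 tested genes, each counted once over 7 lists, limma called 30 between the lines, 33.0% against 27.1% of all tested genes, with a median log2 fold change of -0.04 beside 0.00 for all. With overexpression 0 of the 91 were called and 8 had an unadjusted p under 0.05 (8.79%, against 4.45% of all genes). In the libraries labelled knockdown 0 were called and 10 had one (10.99%, against 9.14%). The 2 most abundant genes of each list had these differences. With overexpression, the log2 fold change was -0.37 for SDC1, the plasma cell proteoglycan syndecan 1 (SE 0.13), 0.26 for ANXA2, an annexin (SE 0.12), 0.30 for HOMER3 (SE 0.16) and -0.19 for PPP3CA, the catalytic subunit of calcineurin (SE 0.25). It was -0.12 for RELA, -0.04 for NFKB1, 0.18 for CTNNB1 (beta-catenin), -0.13 for LEF1, 0.21 for CD44 and 0.24 for the adaptor GRB2. It was -0.08 for TGFB1, 0.02 for its inhibitor SMAD7, 0.13 for ITGB7 and -0.01 for ITGA4. In the libraries labelled knockdown these 14 genes lay between -0.39 for TGFB1 (SE 0.23) and 0.48 for LEF1 (SE 0.19), with limma adjusted p of 0.538 to 0.989. The 6 tested genes of HGF activation and MET signalling had a median of -0.52 there, beside -0.02 for all tested genes, so that list reached past its abundant members CD44 and GRB2 (-0.29 each).

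For this list and those below, counts of called genes stand beside 13.7% of all tested genes called higher and 13.4% called lower in ARP1. No list was tested as a set. Of 24 tested genes of RANK and NFAT signalling, 5 were higher and 2 were lower in ARP1. TNFRSF11A, which encodes RANK, was higher, at 4.08 ± 1.16 FPKM in ARP1 and 2.12 ± 0.672 in H929 (SD, n = 4 each; log2 fold change 0.71, SE 0.17, limma adjusted p = 0.0251). TRAF3, an adaptor that restrains noncanonical NF-kB signalling, was lower, at 13.2 ± 1.67 and 27.4 ± 2.56. TNFSF10, the death ligand TRAIL that osteoprotegerin also binds, was lower at 1.49 ± 0.386 and 5.425 ± 1.39. HOMER3, a scaffold that competes with calcineurin for NFAT, was higher at 96.9 ± 17.5 and 49.2 ± 5.72, as were NFATC4 (6.12 ± 4.94 and 1.62 ± 0.709) and NFAT5, which answers osmotic stress (22.1 ± 5.23 and 14.8 ± 1.07).

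Of 14 tested osteoclast ligands and activating cytokines, 2 were higher and 3 were lower in ARP1. IL6R, the receptor of the myeloma growth factor interleukin 6, was higher, at 31.6 ± 10.9 FPKM in ARP1 and 3.51 ± 3.235 in H929 (log2 fold change 3.05, SE 0.44, limma adjusted p = 0.005). CCL5, a chemokine that attracts T cells, was higher at 18.6 ± 2.16 and 12.8 ± 0.597. The Notch ligand JAG1 (3.24 ± 1.04 and 7.90 ± 2.93), the cytokine IL15 (1.41 ± 1.26 and 3.68 ± 2.01) and the collagenase MMP13 (0.098 ± 0.0364 and 2.27 ± 0.848) were lower. MMP13 passed the filter only through H929, which favours a call in that direction.

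Of 17 tested genes of Wnt signalling, 2 were higher and 3 were lower in ARP1. LEF1, a transcription factor at the end of the pathway, was higher, at 37.6 ± 9.14 FPKM in ARP1 and 15.4 ± 1.55 in H929 (log2 fold change 1.21, SE 0.13, limma adjusted p = 0.0021), as was the ligand WNT5B (10.2 ± 3.74 and 3.57 ± 2.28). KREMEN1, which pairs with DKK1 to remove LRP6 from the surface, was lower at 0.966 ± 0.31 and 2.38 ± 0.479, as were the receptors FZD1 and FZD7. Of 20 tested genes of BMP, activin and TGF-beta signalling, 1 was higher and 4 were lower. The ligand BMP4 was higher, at 5.04 ± 0.888 and 2.075 ± 0.711. BMPR1A, a receptor for BMP ligands, was lower at 4.996 ± 2.22 and 10.5 ± 3.20, as were SMAD5, which carries the BMP signal, the inhibitor SMAD6, and TGFB3. SMAD6 passed the filter only through H929, with no ARP1 library above 0.197 FPKM.

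Of 8 tested receptors and relatives of SPP1, 1 was higher and 4 were lower in ARP1. CD44, a receptor for hyaluronan and osteopontin, was higher at 131 ± 10.95 FPKM in ARP1 and 86.9 ± 22.8 in H929, while the integrin subunits ITGB1 (61.25 ± 8.27 and 130 ± 3.65), ITGB5, ITGA4 and ITGA5 were lower. For the activation of HGF and the MET pathway, 6 genes were tested: CD44 was higher, and PLAUR, the receptor of the protease urokinase, was lower at 8.27 ± 4.50 and 16.3 ± 4.03. Of 4 tested partners and inducers of IL32, the NF-kB subunit RELA was lower in ARP1 (38.8 ± 10.6 and 59.9 ± 1.84), as was HIF1A (7.80 ± 1.27 and 11.8 ± 0.578).

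Markers of bone and marrow cells were checked in the same libraries. Of 10 osteoclast markers 3 were tested, and limma called 2 as higher and 0 as lower in ARP1, CTSK and TNFRSF11A. CTSK, cathepsin K, was the highest at 14.8 ± 4.18 FPKM in ARP1 and 8.69 ± 1.16 in H929 (log2 fold change 0.68, SE 0.15, limma adjusted p = 0.0182). The highest library was at 1.86 for ACP5, 1.26 for CALCR, 1.25 for OSCAR, 0.6055 for OCSTAMP and 0.3655 for ITGB3. DCSTAMP, ATP6V0D2 and MMP9 did not exceed 0.122 in any library. Of 10 osteoblast and osteocyte markers 4 were tested and 0 were called. RUNX2 was the highest at 60.7 ± 31.3 FPKM in ARP1 and 45.8 ± 5.95 in H929. COL1A1 reached 3.30, BGLAP 1.95 and DMP1 1.91, while ALPL was at 0 and COL1A2 at no more than 0.0396. Of 8 stromal markers 2 were tested, and limma called both as lower in ARP1. PDGFRB, a growth factor receptor, stood at 0.119 ± 0.118 FPKM in ARP1 and 3.42 ± 0.662 in H929, and LEPR, the leptin receptor, at 0.731 to 1.32 in ARP1 and 1.34 to 2.93 in H929. No ARP1 library exceeded 0.295 FPKM for PDGFRB, so it passed the filter only through H929, which favours a call in that direction. LUM and CXCL12 were at 0 in all 8 libraries. Of 8 monocyte and macrophage markers 2 were tested and 0 were called: in FPKM, FCER1G averaged 0.696 ± 0.402 in ARP1 against 0.801 ± 0.485 in H929, and CD68 spanned 0.330 to 0.775 in ARP1 against 0.477 to 1.43 in H929. The part of these genes in the differences between lines was not tested.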

How the data were processed

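The authors deposited 1 table of FPKM per transcript in 8 libraries, which the file calls means without saying of what. Per the labels' protocols, RNA passing an integrity number of 7 was poly(A)-selected and read as paired ends. The protocol names adipose RNA, which does not match myeloma lines. Bowtie 0.12.2, HISAT2 2.0, StringTie 1.3.0 and the mouse build mm8 are named per the submitters' processing notes. The transcript identifiers are human, and the sources used here do not give their build.

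Columns were matched to samples by title. Transcripts (87707 of 88209) were joined to GENCODE release 29 on GRCh38 and summed per gene. Values of exactly 0 made up 23.4% of the table, and a further 22.2% were above 0 but under 0.001, as estimation by transcript can give. Genes were tested where 2 or more libraries had an FPKM of 1 or more (14905), which 5 of the 10 factors passed. A gene could pass through 1 line alone, which favours a call of that line as higher.

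Log2 of FPKM plus 1 was fitted in limma 3.58.1 (R 4.3.3) over all libraries, the terms being genotype and line, with 3 residual and 3.7 prior degrees of freedom, and a variance trend. Fold changes on this scale understate changes of low genes. Tests were two-sided, Benjamini-Hochberg adjusted over all tested genes, with a threshold of 0.05. The cell line paired the samples. The difference of effects between lines used the pooled controls of each line (2 residual and 3.1 prior degrees of freedom). Within a line no test was made, and 2-fold ratios of FPKM plus 1 were counted.

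The factors, gene lists, motifs and tests were chosen with earlier results of these data known. From each list the text names up to 6 called genes by size of change, the 2 most abundant where none was called or, for markers, the highest gene. Marker genes beyond the highest, and transcripts, were named after their values were seen. For factors at FPKM of at least 1 in all libraries, the 3 most like genes with mean FPKM of at least 2 are named. Promoter windows are from RefSeq (GRCh38.p14). Alternatives were a pseudocount of 0.1, no filter or FPKM of at least 5, median-ratio and TPM-like scaling, no trend, no transcripts under 300 nt, no block, no genotype terms, pooled controls and each library left out. Weighting by transcript length was added after seeing the data.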

Additional observations from a re-analysis of the deposited data

Results flagged for a closer look

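The 4 libraries of each line were searched for a value standing apart. In both groups flagged the other libraries were at 0, so any value above 0 would have been flagged. A chance rate of about 1 in 20 groups does not apply to such tied values. SPP1 was above 0 in 1 of 4 ARP1 libraries, the one labelled knockdown, at 0.0547 FPKM. TNFRSF11B was above 0 in 1 of 4 H929 libraries, the control of overexpression, at 0.0282 FPKM. Both values are far below an FPKM of 1 and their read counts are unknown.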

How the results depend on the processing

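The IL32 difference between lines kept its direction and call under every alternative run: log2 fold change -3.89 to -3.21 with adjusted p of 0.00177 to 0.0216 by limma over 9 settings, and -3.87 to -2.94 with each library left out (adjusted p 0.00171 to 0.0251). Called factors between lines numbered 1 to 2 with a library left out, the second being CCL3 without either library labelled knockdown. For overexpression and knockdown 0 factors were called under any alternative. With both controls pooled, knockdown log2 fold changes turned sign: 0.08 for DKK1, 0.28 for CCL3, 0.21 for IL32, 0.11 for NFATC1 and -0.03 for BMP6. With each library left out they ran from -0.44 to 0.21 for DKK1, -0.62 to 0.44 for CCL3, -0.92 to 0.49 for IL32, -0.34 to 0.13 for NFATC1 and -0.10 to 0.18 for BMP6. For overexpression, pooled controls gave -0.66 for CCL3, -0.39 for NFATC1, 0.23 for BMP6 and 0.05 for DKK1. IL32 was at -1.65 there (SE 0.54, unadjusted p = 0.0152, adjusted p = 0.741 by limma). With a library left out, signs also turned for NFATC1 in overexpression (-0.61 to 0.26) and DKK1 between lines (-0.04 to 0.22). The causes were not tested. The line as a block paired the samples: without the block IL32 stayed at -1.23 for overexpression with SE 1.87 in place of 0.59, and 0 factors were called. Factors expressed in all 8 libraries numbered 3 to 4 over the alternatives, 4 with a threshold of 0.5 and with TPM-like scaling. Unknown depth limits what can be said of factors listed at 0.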
